A study of Mus musculus with 6 samples.

Results

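Cells with Foxp3 transcripts were examined in T helper 9 (Th9) cultures of mouse CD4 T cells, profiled one cell at a time. A cell was counted as a Foxp3 cell where its deposited Foxp3 value was at least 2 and its deposited cluster number was 0 to 5, which gave 2404 of 27258 cells. Of these, 1589 were wild type (WT) and 815 came from Cblb-/- mice (knockout, KO). The comparison cells, called zero cells, had a Foxp3 value of 0 in the same clusters and numbered 22550. The values are depth-corrected counts per gene and cell (sctransform), not raw counts. The cells were chosen by their Foxp3 value and cluster, so Foxp3 levels are a description only: 965 Foxp3 cells sat at the threshold of 2, 557 held 3 and 882 held 4 or more, with a median of 3 and a highest value of 20, and 2280 cells just below the threshold held exactly 1.

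Foxp3 is the forkhead transcription factor that defines regulatory T (Treg) cells, which restrain other T cells. In conventional CD4 T cells, TGF-beta induces it when the antigen receptor is engaged, and IL-2 acting through its receptor and STAT5 sustains it, while IL-4 acting through STAT6 opposes it. TGF-beta together with IL-4 instead drives Th9 cells, named for the cytokine IL-9, so a culture given both signals can hold cells with either transcript. CBL-B, the product of Cblb, is a ubiquitin ligase that dampens signalling from the antigen receptor and CD28.

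There were 2 groups of 3 samples, WT and Cblb-/-. In both, naive CD4+ T cells isolated from spleen by kit were cultured for 48 h with hTGFβ (3 ng/ml), IL-4 (20 ng/ml) and anti-IFNγ (20 µg/ml), purified on CD4 (L3T4) MicroBeads and sequenced with 10x Genomics Single Cell 3' v3 chemistry. The sources used here do not state the age or strain of the mice, how the Cblb allele was made, or whether the samples of a group are separate animals or cultures. The p-values therefore reflect how far these 6 libraries scatter, and that scatter could be purely technical. The cells were cultured and carry no protein stain for Foxp3 here. Libraries are named by their sequencing index in the table and are called A, B and C (WT) and D, E and F (KO).

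Cblb was checked first. In Foxp3 cells its level, in parts per 1000000 corrected counts (ppm), was 19.4, 21.9 and 17.1 in A, B and C and 15.5, 10.3 and 9.66 in D, E and F. In zero cells it was 33.3, 30.5 and 32.3 against 16.1, 14.4 and 16.4. WT and KO libraries did not overlap in either cell set, and the transcript was not absent from KO cells. Whether the counted 3' end lies in the deleted part is not given in the sources used here. Median depth was 34637 to 38219 raw unique molecular identifiers (UMIs) per Foxp3 cell and 35583 to 39632 per zero cell, and in each library the Foxp3 cells had the lower median. Against zero cells weighted to the same clusters, the mean UMIs of Foxp3 cells were higher in B, C and D and lower in A, E and F. Cells with a Foxp3 value of 1 had medians of 36542 to 41937 UMIs. The same barcode occurred in more than 1 library for 152 cells, 15 of them Foxp3 cells, and no such pair was Foxp3 cells in both libraries. Among KO libraries E stood apart in cell number, with 422 Foxp3 cells against 148 in D and 245 in F.

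Foxp3 cells were a smaller share of KO than of WT cultures and sat mostly in 1 deposited cluster. In clusters 0 to 5 they made up 12.7% of cells in A, 11.9% in B and 12.8% in C, against 4.33% in D, 7.45% in E and 4.54% in F. The 2 genotypes did not overlap (12.5% ± 0.464 against 5.44% ± 1.75, SD, n = 3 each), a description without a test, since the share follows from the rule. Cluster 1 held 72.5% ± 2.44 of the Foxp3 cells in WT and 55.4% ± 9.63 in KO (SD, n = 3 each). Within cluster 1, 20.3% of WT and 13.3% of KO cells were Foxp3 cells. The shares within cluster 0 were 3.08% and 1.80%, within cluster 2 13.5% and 7.53%, within cluster 3 6.43% and 2.21%, within cluster 4 2.32% and 0.834%, and within cluster 5 16.2% and 9.01%. KO means were the lower in each of the 6 clusters, but some rest on few cells. Cluster 4 held 8 Foxp3 cells in WT and 8 in KO, and its libraries overlapped (0.735% to 5.36% in WT, 0.290% to 1.70% in KO). Cluster 3 held 11 Foxp3 cells in KO. KO Foxp3 cells lay more in cluster 2 than WT ones, with 21.7% ± 8.78 of them there against 5.80% ± 2.69. Cluster 6, left out by the rule, held 0 Foxp3 cells of 24, which allows a share of up to 12.5% by a limit of 3 counts and up to 14.2% by the exact 95% binomial interval.

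**Figure D1:**
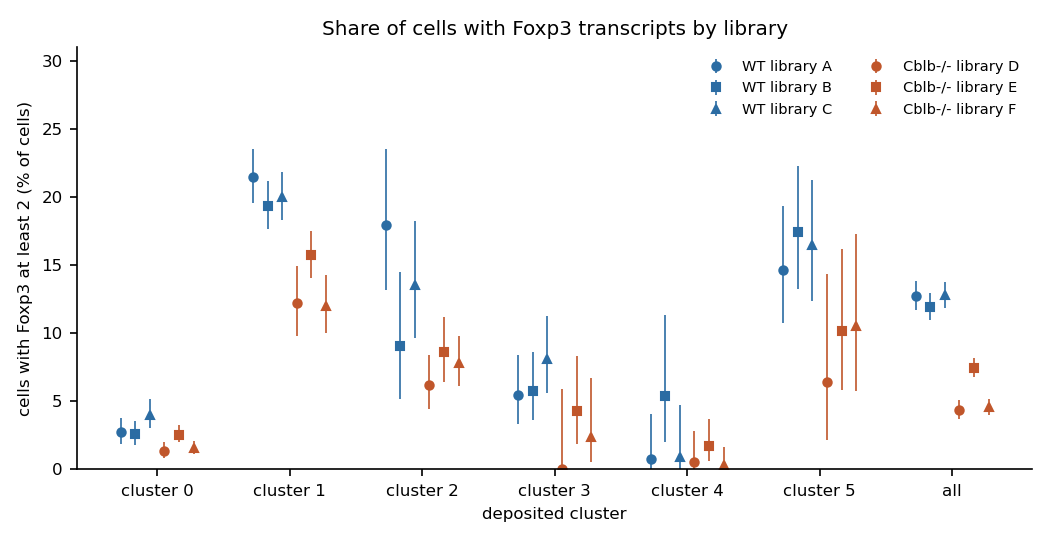
Share of cells with a Foxp3 value of at least 2 (y axis, % of cells) by deposited cluster and over clusters 0 to 5 together (x axis), 1 point per library with its exact 95% binomial interval, which covers counting error only. Over all clusters the WT libraries lie between 11.9% and 12.8% and the KO libraries between 4.33% and 7.45%.

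The label was checked against its 3 markers. Foxp3 was fixed by the rule. Ikzf4, which encodes the Ikaros family factor Eos, was higher in Foxp3 cells of all 6 libraries, and so was Il2ra, which encodes the IL-2 receptor alpha chain CD25. Neither sets the cells apart on its own: zero cells held Ikzf4 at 40.9 to 66.6 ppm and Il2ra at 293 to 546 ppm. Ikzf2, the gene of Helios and a marker of Treg cells formed in the thymus, was 20.7, 13.0 and 12.8 ppm in WT and 32.2, 18.4 and 11.9 ppm in KO Foxp3 cells, and it did not pass the test in either genotype. Itgae stayed under 1 ppm in Foxp3 cells (0.307 to 0.813 ppm), and Il10 rested on 3 corrected counts over all WT and 7 over all KO Foxp3 cells. The cells are therefore called Foxp3 cells here, not Treg cells.

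Markers of other cells were summed per library. Klrb1c, Cpa3, Mcpt8, Fcer1a, Cd14, Itgax, Hba-a1, Alas2 and Pf4 were at 0 in the Foxp3 cells of every library, and the 7 myeloid markers in the table summed to at most 0.212 ppm in Foxp3 cells (0.212 to 0.457 ppm in zero cells). The 8 mast cell and basophil markers summed to 0.313 to 0.717 ppm in Foxp3 and 0.471 to 1.10 ppm in zero cells. The 2 CD8 markers summed to 4.35 to 10.1 ppm in Foxp3 and 5.51 to 11.6 ppm in zero cells. The 10 B cell markers, which include class II genes that activated T cells can also carry, summed to 70.3 to 160 ppm and 71.4 to 133 ppm. The 8 natural killer and gamma-delta markers in the table summed to 25.3 to 43.3 ppm in Foxp3 against 16.7 to 25.1 ppm in zero cells, most of it Nkg7, a cytotoxic granule gene. Nkg7 rose in Foxp3 cells of both genotypes (WT log2 difference 0.66, limma adjusted p = 8.1e-05; KO 0.78, limma adjusted p = 1.2e-05).

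For gene tests the Foxp3 cells of each library were averaged and set against the zero cells of that library, weighted to the same clusters, with Foxp3 left out. Differences are on the log2(ppm + 1) scale, with limma standard errors (SE) and p-values adjusted by Benjamini-Hochberg over 8425 tested genes. In WT libraries 496 genes (5.89%) were higher and 514 (6.1%) lower in Foxp3 cells. In KO libraries 578 (6.86%) were higher and 795 (9.44%) lower. Most differences were small: 28 genes rose and 33 fell by at least 1.5-fold in WT, and 31 rose and 46 fell in KO. With TMM scaling the calls leaned further to the lower side, 38.0% of WT and 38.0% of KO calls being higher against 49.1% and 42.1% here. WT counts fell to 234 higher and 264 lower without A, to 265 and 275 without B and to 262 and 248 without C, and the KO lower count to 515 without F.

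The called genes overlapped between the 2 genotypes. Higher in both were 312 genes and lower in both 361, which is 62.9% of the WT and 54.0% of the KO rises and 70.2% and 45.4% of the falls, and 0 genes were called in opposite directions. The WT and KO differences had a Pearson correlation of 0.744 across genes, given as a description because genes are not independent replicates. The shared genes were chosen on these libraries, so the following values are a description. Without cluster 1, 307 of 307 tested shared rises were higher in WT and 304 of 307 in KO, and 360 and 359 of 361 shared falls were lower. Fewer were called there, 151 and 146 of the rises and 198 and 187 of the falls. In cluster 0 only, 282 and 286 of 301 tested rises kept their direction and 39 and 56 were called. With zero cells matched on cluster and raw depth, all 312 rises and 361 falls kept their direction in both genotypes, and 300 and 298 of the rises and 342 and 342 of the falls were called.

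Genes known from Treg cells were taken first. The counts of this and each later list are to be read beside the shares over all tested genes. These were 5.89% higher and 6.1% lower in WT and 6.86% and 9.44% in KO. Of 24 listed Treg genes 17 were tested, of which 6 rose and 3 fell in WT (median 0.11, against -0.004 over all tested genes) and 10 rose and 3 fell in KO (median 0.15, against -0.02). Gpr83, a G protein-coupled receptor of Treg cells, was 18.0, 18.2 and 15.8 ppm in Foxp3 cells of A, B and C against 6.65, 6.02 and 7.88 ppm in zero cells. In D, E and F it was 21.3, 14.0 and 20.2 ppm against 8.88, 5.38 and 6.59 ppm. Foxp3 and zero cells did not overlap in any pair of libraries. The log2 difference was 1.23 (SE 0.09, limma adjusted p = 8e-08) in WT and 1.29 (SE 0.09, limma adjusted p = 3.7e-08) in KO.

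Ikzf4 was 65.8, 56.4 and 64.3 ppm in WT Foxp3 cells against 42.6, 41.1 and 40.9 ppm in zero cells, and 99.1, 77.3 and 76.1 ppm against 66.6, 51.8 and 55.1 ppm in KO. It rose by 0.57 (SE 0.04, limma adjusted p = 5.2e-08) in WT and 0.53 (SE 0.04, limma adjusted p = 9.3e-08) in KO. Il2ra was 453, 416 and 457 ppm against 324, 293 and 307 ppm in WT, and 698, 513 and 638 ppm against 546, 404 and 488 ppm in KO. Within each library Foxp3 cells were the higher, but WT Foxp3 cells overlapped KO zero cells. The Il2ra rise was 0.52 (SE 0.02, limma adjusted p = 8e-12) in WT and 0.36 (SE 0.02, limma adjusted p = 9.3e-10) in KO.

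Izumo1r, which encodes folate receptor 4, rose by 0.48 in WT and 0.73 in KO, and Tnfrsf9, which encodes the costimulatory receptor 4-1BB, by 0.32 and 0.44. Capg rose by 0.22 and 0.30. Ctla4, the inhibitory receptor through which Treg cells strip CD80 and CD86 from other cells, had a difference of 0.02 in WT, which missed the threshold, and rose by 0.10 in KO. Tnfrsf18 (GITR) did likewise, with 0.08 in WT and a rise of 0.15 in KO, as did Icos with 0.11 and 0.34. Some listed Treg genes went the other way. Ebi3, a subunit of IL-35, fell by 0.65 and 0.71, Cst7 by 0.23 and 0.32, and Cd83 by 0.20 and 0.17. Il12a, which encodes the partner subunit of IL-35 and of IL-12, fell by 0.57 in WT and 0.90 in KO.

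**Figure D2:**
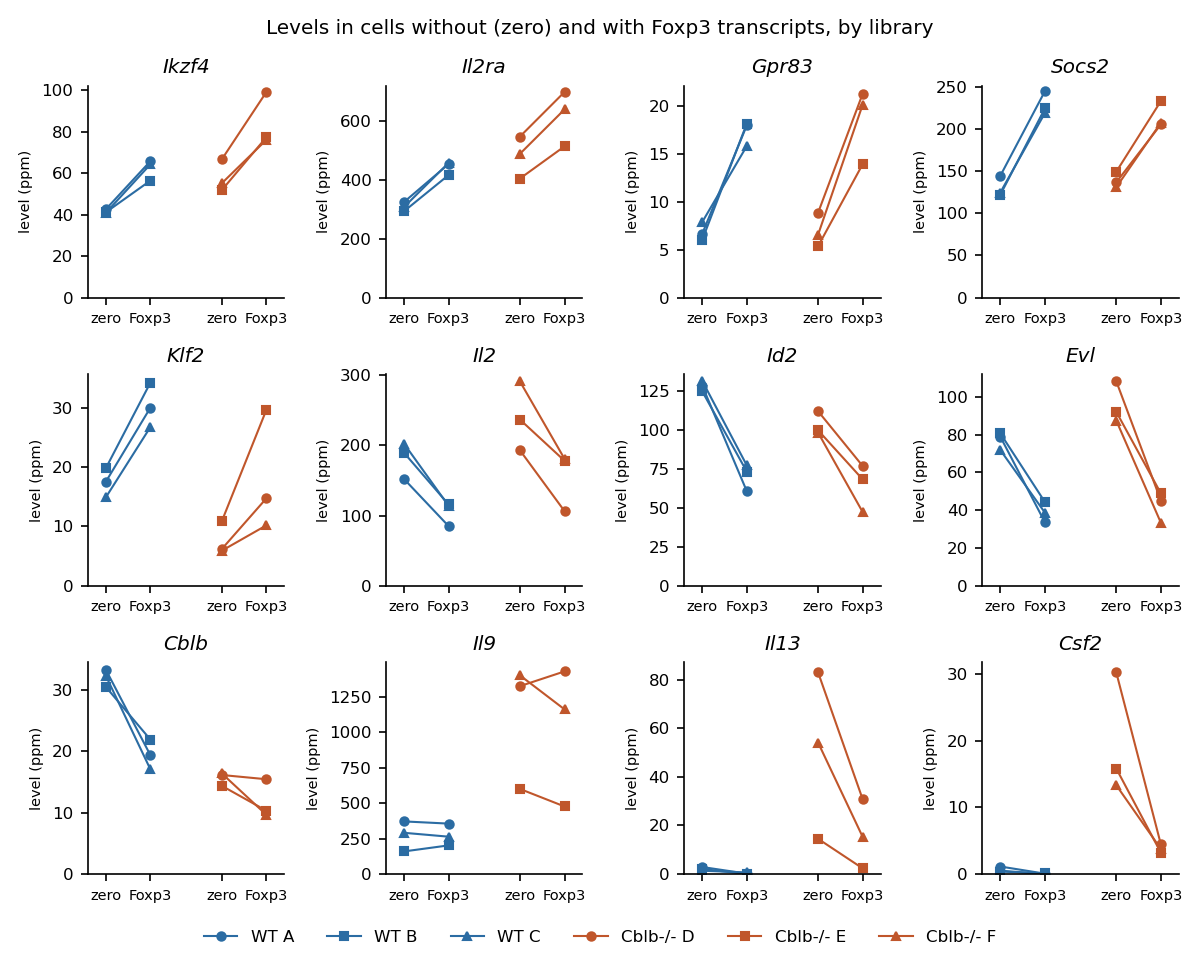
Level in ppm (y axis, from 0) in matched zero cells and Foxp3 cells (x axis) for 12 genes, with 1 line per library. Lines rise in all 6 libraries for Ikzf4, Il2ra, Gpr83, Socs2 and Klf2 and fall in all 6 for Il2, Id2, Evl and Cblb, while Il9 lines go both ways.

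Genes tied to thymic origin, partner factors and known targets of Foxp3 were taken next. Of 5 tested genes on the thymic list, 3 rose in WT and 2 in KO. Igfbp4, an insulin-like growth factor binding protein of resting T cells, rose by 0.78 in both genotypes and Plagl1 by 0.58 and 0.50, while Nrp1 rose by 0.34 in WT, with 0.09 in KO. Of 22 tested partner and upstream factors, 4 rose and 4 fell in WT and 5 rose and 1 fell in KO. Ikzf3 (Aiolos) rose by 0.34 and 0.66, Foxo1, an upstream factor of Foxp3, by 0.16 and 0.14, Lef1 by 0.21 and 0.14, and Ezh2 by 0.12 and 0.17. Satb1, a chromatin organiser that Foxp3 is known to repress in Treg cells, was 83.8, 86.5 and 85.6 ppm in WT Foxp3 cells against 123, 123 and 129 ppm in zero cells. In KO it was 195, 124 and 206 ppm against 287, 186 and 292 ppm. It fell by 0.55 and 0.54 (limma adjusted p = 1.8e-10 and 2.3e-10).

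Of 5 tested genes that Foxp3 is known to repress, 0 rose, 2 fell in WT and 3 in KO. Il2, the T cell growth factor gene, was 85.0, 116 and 114 ppm in WT Foxp3 cells against 152, 189 and 202 ppm in zero cells. In KO it was 106, 178 and 181 ppm against 193, 236 and 291 ppm. Foxp3 cells were the lower in all 6 libraries. Il2 fell by 0.79 (SE 0.05, limma adjusted p = 2.5e-08) in WT and 0.65 (SE 0.05, limma adjusted p = 1.6e-07) in KO. Cd40lg, which encodes CD40 ligand, fell by 0.31 and 0.26, and Pde3b by 0.37 in KO with -0.15 in WT. Tnf (0.00 and 0.03 in size) and Ptpn22 (-0.05 and -0.09) were not called.

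Foxp3 lies on chrX:7573644-7595245 of mm10 on the plus strand in GENCODE M21. Its neighbour Ccdc22 (chrX:7593809-7605517, minus strand) overlaps the 3' end of the Foxp3 gene. Ccdc22 was 18.6, 17.9 and 18.2 ppm in WT Foxp3 cells against 22.2, 22.5 and 21.5 ppm, and 17.4, 15.4 and 18.2 ppm against 21.8, 21.1 and 23.5 ppm in KO. It fell by 0.26 (limma adjusted p = 0.0031) and 0.36 (limma adjusted p = 0.00017). Of 6 tested neighbours 1 fell in each genotype, Ccdc22, and 1 rose in KO, Wdr45 (0.23). How the authors counted reads in the overlap is not given in the sources used here.

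Genes downstream of IL-2 and STAT5 formed the next group. Of 20 tested, 8 rose and 2 fell in WT (median 0.10) and 7 rose and 3 fell in KO (median 0.05). Socs2, a feedback inhibitor of cytokine signalling, was 245, 224 and 219 ppm in WT Foxp3 cells against 144, 122 and 125 ppm in zero cells, and 205, 233 and 207 ppm against 137, 149 and 131 ppm in KO. All 6 Foxp3 values lay above all 6 zero values. It rose by 0.81 (SE 0.03, limma adjusted p = 1.7e-12) and 0.63 (SE 0.03, limma adjusted p = 3e-11). The kinase gene Pim1 rose by 0.44 and 0.33, Socs1 by 0.38 and 0.35, Lta by 0.30 and 0.34, the survival gene Bcl2 by 0.29 and 0.29 and Ccnd2 by 0.08 and 0.08. Cish rose by 0.16 in WT, with 0.04 in KO. Bcl2l1 fell by 0.17 and 0.17, and Cdk6 by 0.19 and 0.28. The receptor chains Il2rb (0.02 and 0.06) and Il2rg (-0.10 and -0.09) were not called.

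Because this group is read through STAT5, promoters were searched for the STAT letters TTCNNNGAA, which read the same on both strands, and for the forkhead letters TGTTTAC on either strand. RefSeq promoters (GRCm38.p6, 250 bases before to 50 after the start site) were matched by symbol for 236 of 312 shared rises and 269 of 361 shared falls. The STAT letters occurred in 32 (13.6%) of the rises and 14 (5.20%) of the falls, against 6.88% of 6713 promoters of tested genes and 8.47% of all 27025. The forkhead letters occurred in 2.97% of the rises, 1.49% of the falls, 2.55% of tested genes and 3.55% of all promoters. These are descriptions, a match is not a binding site, and the share was not tested. Of 18 named rises 14 had a promoter in the table and 3 of these (Sgk1, Dbp and Ptprj) held the STAT letters. Sgk1 is shown as the largest rise of these in KO, together with Lta, a listed STAT5 gene with 2 matches, both chosen after their letters were seen. The table's Ptprj stretch lies inside the gene as GENCODE M21 gives it and its Dbp stretch overlaps the first exon, so neither is shown. Each stretch runs 5′ to 3′ over 250 bases up to the RefSeq start site, with the STAT letters in capitals.
Sgk1 (chr10:21881934-21882183, plus strand): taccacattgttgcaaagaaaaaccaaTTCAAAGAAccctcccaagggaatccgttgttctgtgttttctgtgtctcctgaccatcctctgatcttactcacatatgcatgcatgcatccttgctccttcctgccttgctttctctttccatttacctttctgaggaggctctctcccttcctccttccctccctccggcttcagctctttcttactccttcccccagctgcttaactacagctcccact
Lta (chr17:35205352-35205601, minus strand): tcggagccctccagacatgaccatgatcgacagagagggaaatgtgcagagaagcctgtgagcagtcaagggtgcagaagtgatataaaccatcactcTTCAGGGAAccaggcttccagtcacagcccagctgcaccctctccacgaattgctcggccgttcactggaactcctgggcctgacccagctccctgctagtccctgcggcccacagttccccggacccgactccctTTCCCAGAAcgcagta
The match begins 223 bases before the start site in Sgk1, and 152 and 16 bases before it in Lta.

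Genes of the TGF-beta and IL-4 signals given to the cultures were taken next. Of 22 tested TGF-beta genes, 4 rose and 3 fell in WT and 5 rose and 3 fell in KO (medians 0.04 and -0.0004). Klf10 rose by 0.37 and 0.60 and the receptor gene Tgfbr1 by 0.31 and 0.32. Id2, an inhibitor of E protein factors, was 60.7, 73.2 and 77.2 ppm in WT Foxp3 cells against 128, 125 and 131 ppm in zero cells, and 76.7, 68.2 and 47.2 ppm against 112, 99.6 and 98.1 ppm in KO. It fell by 0.86 (limma adjusted p = 3.7e-07) and 0.71 (limma adjusted p = 3.6e-06), and its relative Id3 by 0.52 and 0.43. Of 10 tested IL-4 and STAT6 genes, 2 rose and 2 fell in WT and 3 rose and 2 fell in KO. The receptor gene Il4ra rose by 0.44 and 0.37, and Gfi1, a repressor that promotes type 2 cells, fell by 0.48 and 0.53. Gata3, the leading type 2 factor, was not called (0.00 and 0.08 in size).

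Il9, the cytokine gene of Th9 cells, was measured in the same way. It was 355, 202 and 263 ppm in WT Foxp3 cells against 371, 159 and 290 ppm in zero cells, and 1428, 476 and 1160.3 ppm against 1324, 599 and 1400.1 ppm in KO. Foxp3 cells were higher in B and D and lower in A, C, E and F. The difference was 0.05 (SE 0.07, limma adjusted p = 0.78) in WT and -0.16 (SE 0.07, limma adjusted p = 0.14) in KO. The KO value depends on the setting. Against all zero cells of the library, without cluster matching, it was 0.46 (limma adjusted p = 0.0016). It was called lower with Foxp3 of at least 1 (-0.22, limma adjusted p = 0.0082), with at least 3 (-0.23, limma adjusted p = 0.041), with weighting by cell number (-0.23, limma adjusted p = 0.045), in cluster 1 only (-0.21, limma adjusted p = 0.021), without B (-0.16, limma adjusted p = 0.046) and without D (-0.30, limma adjusted p = 0.004). The Foxp3 cells of cluster 2 held Il9 at 2994, 2801 and 2427 ppm in WT and 4766, 2972 and 3371 ppm in KO, while those of cluster 1 held 111, 75.2 and 120 ppm and 173, 163 and 247 ppm.

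Il9 was also counted per cell. The share of Foxp3 cells that reached a corrected Il9 count of 10 was 21.6% in A, 12.9% in B and 19.7% in C, and 43.9% in D, 24.9% in E and 46.5% in F. Matched zero cells gave 21.9%, 11.9% and 17.1%, and 44.6%, 27.5% and 47.0%. The mean difference over 6 libraries was -0.0965 percentage points, with 2 libraries higher and 4 lower (exact sign-flip permutation test, two-sided, p = 0.875). In cluster 6, whose cells had a median of 24759 UMIs against 37050.5 in Foxp3 cells, 4.17% of cells reached that value. Of 14 tested Th9 genes, 4 rose and 3 fell in each genotype (medians 0.002 and -0.02). Irf8 rose by 0.47 and 0.45, Ets1 by 0.22 and 0.16 and Irf4 by 0.07 and 0.08, while Bhlhe40 fell by 0.59 and 0.47 and Ccl20 by 0.75 and 0.63. Batf was not called (0.00 and 0.03 in size).

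Of 8 tested Th17 genes, 1 rose and 3 fell in WT and 2 rose and 1 fell in KO. Ahr, the aryl hydrocarbon receptor gene, fell by 0.44 and 0.22. Of 6 tested Th1 genes, 1 rose and 4 fell in WT and 0 rose and 2 fell in KO, Stat4 falling in both by 0.23 and 0.31.

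Cytokine genes had more falls than rises in Foxp3 cells. Of 21 tested, 3 rose and 10 fell in WT (median -0.37) and 2 rose and 11 fell in KO (median -0.49), beside falls in 6.1% and 9.44% of all tested genes. Il13, a type 2 cytokine, was 30.7, 2.32 and 15.2 ppm in KO Foxp3 cells against 82.9, 14.5 and 54.1 ppm in zero cells. It fell by 1.80 (SE 0.18, limma adjusted p = 2e-06). In WT it was 0.159, 0 and 0.635 ppm against 2.89, 2.08 and 1.36 ppm, called lower with limma adjusted p = 7.3e-05, but the WT Foxp3 cells held only 17 corrected counts in 7 cells. Csf2, which encodes GM-CSF, was 4.44, 3.19 and 3.76 ppm in KO Foxp3 cells against 30.2, 15.8 and 13.3 ppm in zero cells, a fall of 2.04 (SE 0.16, limma adjusted p = 1e-07). WT Foxp3 cells held 3 corrected Csf2 counts in all, and the WT call (limma adjusted p = 0.012) was lost without A (limma adjusted p = 0.21). A gene was tested only where its mean level over all profiles was high enough. Il13 reached that level only through KO cells and Csf2 only through KO zero cells, the higher side of its KO comparison. The p-values of Il13 and Csf2 in either genotype are therefore not taken as support, and their levels are a description.

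Tnfsf8, the CD30 ligand gene, was 16.6, 27.6 and 20.9 ppm against 34.1, 50.2 and 36.1 ppm in WT and 74.6, 49.4 and 22.3 ppm against 98.5, 91.3 and 61 ppm in KO. It fell by 0.87 and 0.89 (limma adjusted p = 3.6e-05 and 2.5e-05). Tnfsf11 (RANK ligand) fell by 0.33 and 0.49, Tnfsf14 (LIGHT) by 0.42 and 0.40, and Csf1 by 0.46 and 0.58. Il1a fell by 0.92 in KO, with -0.46 in WT (limma adjusted p = 0.083). Penk, the proenkephalin gene, fell by 0.98 in KO (limma adjusted p = 0.049), a call lost without E or without F (highest limma adjusted p = 0.41). The Penk call was lost under 8 of 20 alternatives in all. Among them were depth matching (limma adjusted p = 0.061), a pseudocount of 0.1, weighting by cell number and leaving out cluster 1 (limma adjusted p = 0.37). The rises were Lta and Ltb, the lymphotoxin genes, in both genotypes and Lif in WT (0.34, with -0.09 in KO). Ltb was 311, 288 and 306 ppm against 214, 198 and 224 ppm in WT and 275, 311 and 259 ppm against 178, 208 and 177 ppm in KO, a rise of 0.51 and 0.58 (limma adjusted p = 1.3e-10 and 2.3e-11).

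Of 18 tested cytokine receptor genes, 5 rose and 2 fell in WT and 5 rose and 1 fell in KO. Il7r, the IL-7 receptor gene that Treg cells are known to hold low, fell by 0.44 and 0.45, and Il27ra rose by 0.18 and 0.26. Chemokine and homing genes rose in 5 of 13 and fell in 0 in WT, and rose in 4 and fell in 2 in KO. The integrin gene Itgb7 rose by 0.32 and 0.29 and Selplg, the selectin ligand gene, by 0.37 and 0.28.

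Genes induced by the antigen receptor were raised more often than lowered: of 29 tested, 10 rose and 2 fell in WT and 9 rose and 5 fell in KO (medians 0.07 and 0.06). Over all tested genes 5.89% rose and 6.1% fell in WT, and 6.86% rose and 9.44% fell in KO. Jun rose by 0.72 and 0.52, Nr4a3 by 0.47 and 0.51, Nr4a1 by 0.44 and 0.28, Egr3 by 0.33 and 0.39 and Myc by 0.26 and 0.17. Nfkbid fell by 0.29 and 0.15, and Cd69 by 0.30 in KO with -0.14 in WT. Parts of the receptor machinery were lower. Of 14 T cell identity genes, 1 rose and 7 fell in WT and 2 rose and 6 fell in KO. Cd3g was 217, 218 and 213 ppm against 273, 259 and 252 ppm in WT and 240, 211 and 167 ppm against 284, 250 and 236 ppm in KO, a fall of 0.27 and 0.33. Cd247, which encodes the zeta chain, fell by 0.27 and 0.13, Zap70 by 0.25 and 0.12 and Ptprc by 0.23 and 0.20, whereas Cd2 rose by 0.32 and 0.42 and Cd4 was not called (0.03 and -0.02).

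Inhibitory receptor genes had more falls than rises. Of 11 tested, 1 rose and 5 fell in WT and 2 rose and 5 fell in KO (medians -0.13 and -0.14). Falls made up 6.1% (WT) and 9.44% (KO) of all tested genes. Pdcd1 (PD-1) fell by 0.49 and 0.42, Cd200 by 0.60 and 0.42 and Btla by 0.50 and 0.46, and Lag3 fell by 0.48 in WT with -0.14 in KO. Nt5e, which encodes the ectoenzyme CD73 that makes adenosine and is used by Treg cells, rose by 0.79 in KO. In WT it rose by 0.28, a call lost without A or without B (highest limma adjusted p = 0.23). Of 18 tested costimulation genes, 2 rose and 4 fell in WT and 5 rose and 6 fell in KO, Cd226 falling by 0.43 and 0.78. Of 23 NF-kappaB genes, 3 rose and 1 fell in WT and 1 rose and 3 fell in KO, Bcl3 rising by 0.52 and 0.33.

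Genes of naive and resting T cells rose in part. Of 28 tested, 8 rose and 5 fell in WT and 12 rose and 5 fell in KO (medians 0.09 and 0.09). Rises made up 5.89% (WT) and 6.86% (KO) of all tested genes, and falls 6.1% and 9.44%. Klf2, a factor of quiescent and recirculating T cells, was 30.0, 34.3 and 26.8 ppm in WT Foxp3 cells against 17.5, 19.8 and 14.9 ppm in zero cells, and 14.7, 29.7 and 10.2 ppm against 6.19, 10.9 and 5.91 ppm in KO. It rose by 0.77 (limma adjusted p = 1.3e-05) and 1.06 (limma adjusted p = 2.9e-07). The list did not move as one: Dapl1 fell by 0.43 and 0.38, Pdlim1 by 0.25 and 0.23 and, as above, Satb1 and Il7r fell, while Ccr7 (-0.01 and 0.07) and Tcf7 (-0.09 and -0.08) were not called.

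Other large rises, named by a rule of size, were spread over functions. Rragd, which encodes the RagD GTPase of the amino acid branch of mTORC1, was 39.1, 38.9 and 36.8 ppm against 21.8, 18.8 and 19.9 ppm in WT and 34.1, 36.5 and 44.6 ppm against 19.6, 21.1 and 22.0 ppm in KO. It rose by 0.89 and 0.84 (limma adjusted p = 1.2e-08 and 2e-08). The kinase gene Sgk1 rose by 0.84 and 1.15, Tead1, a Hippo pathway factor, by 0.77 and 1.22, and the clock output factor Dbp by 0.87 and 0.79. Ptprj, a receptor phosphatase gene, rose by 0.91 and 0.70, Lair1, a collagen-binding inhibitory receptor gene, by 0.84 and 0.74, Myb by 0.85 and 0.52, the sodium pump subunit gene Atp1b1 by 0.81 and 0.51 and Mcub, which encodes a subunit of the mitochondrial calcium channel, by 0.71 and 0.81. Gsta4, a glutathione transferase gene, rose by 1.70 in KO. In WT it rose by 0.84, and the value was 0.42 without A (limma adjusted p = 0.19). Ecm1 and Gadd45g rose by 0.93 and 0.93 in KO, with 0.38 and 0.08 in WT, which missed the threshold.

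The other large falls, named by the same rule of size, were also of mixed function. Myh10, a non-muscle myosin heavy chain gene, was 3.66, 5.94 and 4.67 ppm against 11.8, 12.6 and 13.8 ppm in WT and 8.70, 5.26 and 5.79 ppm against 17.4, 13.5 and 17.7 ppm in KO, a fall of 1.27 and 1.20 (limma adjusted p = 2e-07 and 3.8e-07). Evl, an actin assembly factor gene, was 33.6, 44.3 and 38.7 ppm against 78.9, 80.7 and 71.9 ppm in WT and 45.1, 48.9 and 33.4 ppm against 108, 92.1 and 87.5 ppm in KO. All Foxp3 values lay below all zero values, and the falls were 0.98 and 1.17 (limma adjusted p = 5.4e-08 and 5.7e-09). Plek, which encodes pleckstrin, fell by 1.15 and 1.21, Filip1l by 1.03 and 0.83 and Tspan6 by 0.82 and 0.70. Sh2d1a, which encodes the SLAM adaptor SAP, fell by 0.80 and 0.92, Trat1, a receptor-associated adaptor gene, by 0.49 and 0.93, Rgs2, a brake on G protein signalling, by 0.91 and 0.79, Mgll, a lipase gene of endocannabinoid breakdown, by 0.76 and 1.01, Atxn1 by 0.89 and 0.78 and Evi2a by 0.82 and 0.63. Cblb was itself lower in WT Foxp3 cells, by 0.70 (limma adjusted p = 7e-05). In KO it was lower by 0.40 (limma adjusted p = 0.0074), a call lost without F (limma adjusted p = 0.11).

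Glycolysis and hypoxia genes had more falls than rises, mostly small. Of 28 tested, 1 rose and 10 fell in WT (median -0.06) and 1 rose and 15 fell in KO (median -0.12), beside falls in 6.1% and 9.44% of all tested genes. Tpi1 fell by 0.10 and 0.15, Pgk1 by 0.11 and 0.12, Aldoa by 0.12 and 0.13, and the lactate exporter gene Slc16a3 by 0.17 and 0.37, while Egln3 rose by 0.46 and 0.35. Cell cycle genes were called about as often as the 12% (WT) and 16.3% (KO) of all tested genes called in either direction. Of 42 S phase genes, 1 rose and 3 fell in WT and 5 rose and 1 fell in KO, and of 40 G2/M genes, 2 rose and 3 fell in WT and 0 rose and 6 fell in KO, with Mki67 not called (-0.01 and 0.04). Of 32 MYC and ribosome biogenesis genes, 1 rose and 3 fell in WT and 2 rose and 3 fell in KO. Of 11 interferon genes, 4 rose and 3 fell in WT and 1 rose and 3 fell in KO. Of 19 apoptosis genes, 2 rose and 4 fell in WT and 4 rose and 4 fell in KO, with Bcl2a1d falling by 0.62 and 0.51. Of 19 p53 genes, 1 rose and 1 fell in WT and 2 rose and 3 fell in KO, and of 4 tested steroid and aldo-keto reductase genes, 0 rose and 1 fell in WT and 1 rose and 1 fell in KO.

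**Figure D3:**
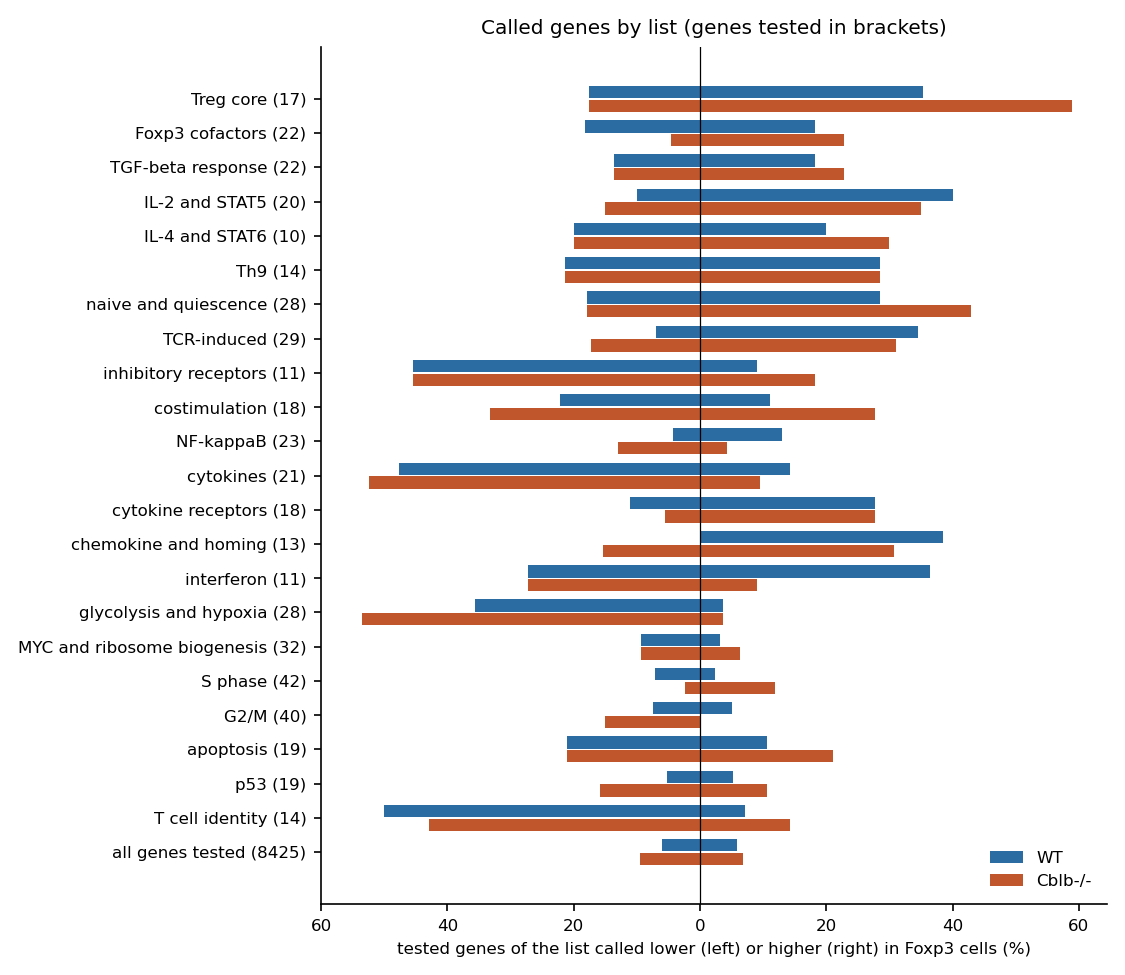
Percentage of the tested genes of each list (number in brackets) called higher (right) or lower (left) in Foxp3 cells in WT and KO libraries (x axis, %), for lists with at least 10 tested genes; bars at the bottom give all tested genes. Cytokines, inhibitory receptors, T cell identity and glycolysis extend to the left, and the Treg list extends furthest to the right in KO.

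For several genes the difference was larger in cells with more Foxp3. Depth moved along the same order: mean UMIs were 43368.5 to 48857.5 in cells at exactly 1 against 39018 to 43313 in their matched zero cells, and 34959 to 41548 in cells at 4 or more against 38898 to 42556. Cells at 1 were the deeper and cells at 4 or more the shallower in all 6 libraries, and the part of depth in the order was not tested. Cells at 1, 2, 3 and 4 or more were each set against the matched zero cells, as a description without a test. Gpr83 differed by 0.62, 0.84, 1.27 and 1.5 in WT (SD over 3 libraries 0.11 to 0.36) and by 0.59, 0.99, 1.39 and 1.51 in KO (SD 0.06 to 0.50). Il2ra differed by 0.32, 0.42, 0.49 and 0.63 in WT and by 0.22, 0.29, 0.31 and 0.47 in KO. Il2 went down in the same order, by -0.31, -0.57, -0.96 and -1.01 in WT and by -0.25, -0.53, -0.76 and -0.96 in KO. Izumo1r, Igfbp4 and Nt5e were ordered upward, and Evl, Id2, Atxn1, Mgll, Sh2d1a, Trat1 and Il12a downward, in both genotypes. Neighbouring steps often lay within the spread between libraries. Ikzf4 had no such order, with 0.45, 0.47, 0.46 and 0.72 in WT and 0.38, 0.56, 0.50 and 0.53 in KO. Il9 had none either, with -0.05, -0.09, 0.20 and 0.05 in WT. Most genes examined in this way had no order shared by both genotypes. Socs2, Rragd, Gsta4, Lair1 and Myh10 had none in either genotype, and Plek and Klf2 were ordered in KO only. Cells at exactly 1, outside the rule, thus already differed from zero cells in Gpr83, Il2ra, Ikzf4 and Il2 in the mean of each genotype.

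**Figure D4:**
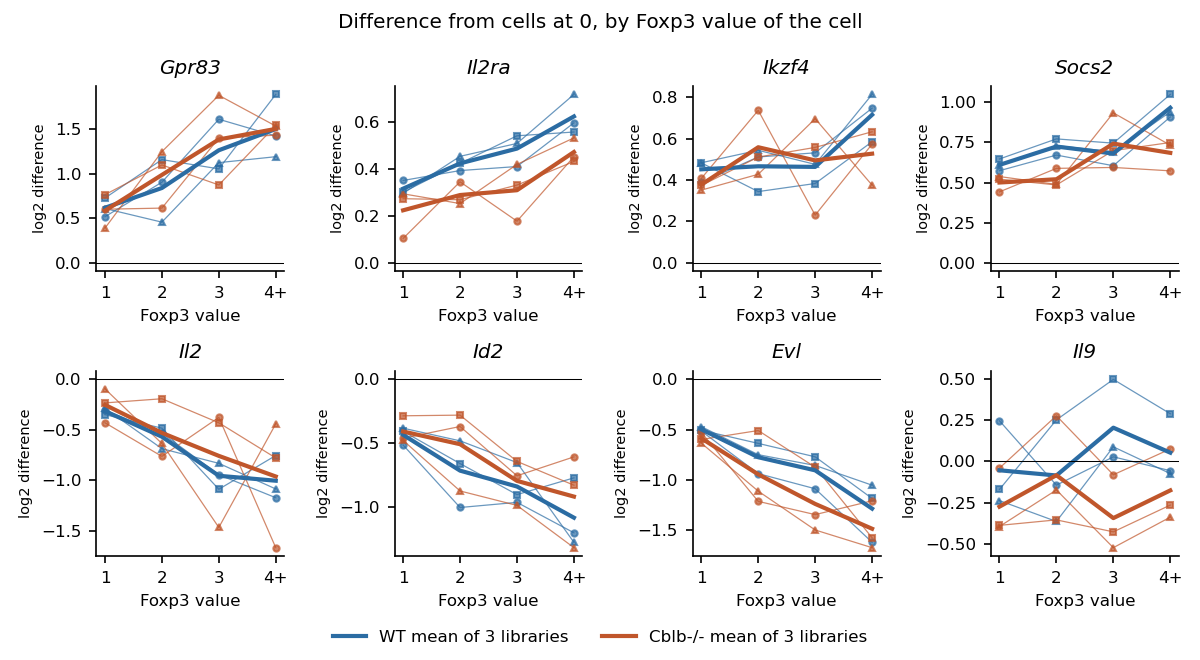
Log2 difference from matched zero cells (y axis) by the Foxp3 value of the cell (x axis: 1, 2, 3, and 4 or more) for 8 genes; thin lines are libraries and thick lines the mean of 3 libraries of a genotype. Gpr83 climbs from 0.62 to 1.5 in WT, Il2 drops from -0.31 to -1.01, and Il9 shows no order.

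Counted as shares of cells, 77.2% of WT and 84.9% of KO Foxp3 cells had at least 1 corrected Ikzf4 count, against 60.0% and 71.5% of matched zero cells. The share was higher in 6 of 6 libraries, by 15.3 percentage points on average (exact sign-flip permutation test, two-sided, p = 0.03125, adjusted over 3 share tests 0.046875, the smallest that 6 libraries allow being 0.03125). At least 1 Il2 count was found in 66.0% and 72.1% of Foxp3 against 70.6% and 77.5% of zero cells, lower in 6 of 6 libraries by 5.07 points on average (exact sign-flip permutation test, two-sided, p = 0.03125, adjusted 0.046875). In the 24 cells of cluster 6 the shares were 37.5% for Ikzf4 and 83.3% for Il2, and whether these cells express the genes was not tested.

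The last comparison set KO against WT within Foxp3 cells, over 3 libraries each. Of 8425 genes, 428 (5.08%) were higher and 465 (5.52%) lower in KO. The counts were 203 and 99 without A, 201 and 121 without B, 184 and 92 without C, and 714 and 691 without E. Il9 was higher by 1.79 (SE 0.34, limma adjusted p = 0.012; 0.054 without B), with 202 to 355 ppm in WT and 476 to 1428 ppm in KO. Foxp3 cells of the 2 genotypes thus did not overlap in Il9. This comparison was not matched on cluster, and cluster 2, where Foxp3 cells held more Il9 than in clusters 0 and 1, held 21.7% of KO against 5.80% of WT Foxp3 cells. Within cluster 1 the Il9 ranges were 75.2 to 120 ppm in WT and 163 to 247 ppm in KO, and within cluster 2 they were 2427 to 2994 ppm and 2972 to 4766 ppm, which overlap. The part of the cluster shares in the difference was not tested. Il13 rose, from 17 corrected counts in 1589 WT cells to 352 in 815 KO cells (limma adjusted p = 0.013; 0.056 at most without A or B). Csf2 rose from 3 to 111 corrected counts (limma adjusted p = 0.00036). Il13 passed the 5 ppm filter only through KO cells and Csf2 only through KO zero cells, so their p-values are not taken as support. Plek was higher in KO by 1.44 (limma adjusted p = 0.0012), Ebi3 by 1.05, Satb1 by 0.996 and Bhlhe40 by 0.79.

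Among the Treg genes, 8 of 17 were higher and 2 lower in KO Foxp3 cells (median 0.42, against -0.02 over all tested genes). Of all tested genes 5.08% were higher and 5.52% lower, and clusters were not matched. The genotype difference was not particular to Foxp3 cells. In zero cells the Treg list summed to 2050.5 to 2169 ppm in WT and 2359 to 3020 ppm in KO. Il2ra and Ikzf4 did not overlap between genotypes in zero cells either. In KO Foxp3 cells Ctla4 was higher by 0.77, Tnfrsf9 by 0.74, Tnfrsf4 by 0.63 and Tnfrsf18 by 0.62. Il2ra was higher by 0.47 (limma adjusted p = 0.016) and Ikzf4 by 0.42 (limma adjusted p = 0.029), and both calls were lost without A, B or C (highest limma adjusted p = 0.069 and 0.12). Capg was lower by 0.48 and Icos by 0.35, and Gpr83 was not called (0.07). Other large rises were Gatm (2.77), a creatine synthesis enzyme gene, Ntrk3 (2.10), Klhl3 (2.01), Inhba (1.87), which encodes an activin subunit, Cth (1.86), a cysteine synthesis enzyme gene, Tnip3 (1.78) and Cacnb3 (1.74). Large falls were Trmo (-2.28), Hspbap1 (-1.38), Tox (-1.33), Hist1h2bj (-1.18), Pdlim5 (-1.17), Akr1c18 (-1.12), Hist1h1a (-1.07), Fhl2 (-1.07), Trib2 (-1.06) and St8sia4 (-0.96). Tnip3 and Hist1h1a lost their call without A, B, C or D, Pdlim5 without A, B or C, and Tox without A (highest limma adjusted p for these 0.086). Akr1c18 lost its call with Foxp3 of at least 3 (limma adjusted p = 0.082). In libraries with at least 10 such cells, Foxp3 cells of cluster 5 held Akr1c18 at 516 to 797 ppm, against 1.99 to 6.37 ppm in cluster 1. Cluster 5 held 8.77% of WT against 4.08% of KO Foxp3 cells, and the part of these shares was not tested. Cblb was lower by 0.70 (limma adjusted p = 0.024; up to 0.10 without A, B, C or F).

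The difference between Foxp3 and zero cells itself differed between genotypes for few genes: 6 (0.0712%) were more raised and 11 (0.131%) less raised or more lowered in KO, with 653 genes at an unadjusted p under 0.05. Il2ra rose less in KO by 0.16 (limma adjusted p = 0.014; 0.078 with TMM scaling and up to 0.16 without B or C) and Socs2 by 0.19 (limma adjusted p = 0.042; 0.082 with TMM scaling and up to 0.31 without A, B, C or D). Izumo1r rose more by 0.24 (limma adjusted p = 0.011), a call lost without B and without C, where 0 genes were called more raised. Removing 1 library moved these counts to between 0 and 12 higher and between 2 and 32 lower, with 0 and 2 without B, 0 and 4 without C, 1 and 5 without A, 9 and 32 without E and 12 and 12 without F.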

How the data were processed

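Single cells of 6 Th9 cultures were read from 1 table that the authors deposited. Per the file headers it holds a score for each gene and cell, an sctransform-corrected count, besides each cell's raw UMI count and percent of mitochondrial UMIs, both as deposited. The submitters' processing notes list Seurat 3.0.0, Cell Ranger 3.0.2 and mm10, with no word on how each was used. The deposited cells all had at least 15006 UMIs and at most 15.2% mitochondrial UMIs. Because values were already depth-corrected, no count model was fitted, no thinning was done and no doublet caller was run. Table rows carry a sequencing index and genotype, which give the library. The members, lists and tests were chosen with earlier results of these data known.

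In each library, the mean profiles of Foxp3 cells and of zero cells weighted to the same clusters were scaled to ppm without Foxp3. A gene was tested where its mean over 12 profiles reached 5 ppm. The model was limma (version 3.58.1, under R 4.3.3) on log2(ppm + 1) with library as block and a trended prior, two-sided, with Benjamini-Hochberg adjustment at 0.05, and fold changes of low genes are understated. KO against WT used the 6 Foxp3 profiles. The procedure was tested on simulated data. Exact tests used scipy 1.17.1 in Python 3.11.15. Named genes were Ikzf4, Il2ra, Cblb, Il9, Il13 and Il2, the 12 largest called rises and falls per genotype with all 3 libraries moving alike, the 10 largest each way without overlap between genotypes, and 10 for the difference of contrasts. Receptor segment, Y-linked, ribosomal, mitochondrial and provisional gene names were passed over. Other genes named are list members, as examples chosen after their values were seen. Some genes met by these rules are not reported here. Alternatives were other Foxp3 thresholds, matching, depth windows, TMM scaling (edgeR 4.0.16), pseudocounts, filters, weights, clusters and leaving out each library. Cluster 0 only and leaving out cluster 1 were chosen after seeing the data.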

Additional observations from a re-analysis of the deposited data

Results flagged for a closer look

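For 17 genes, of which those below are described, the difference between Foxp3 and matched zero cells itself differed between genotypes, by limma's test of that difference with Benjamini-Hochberg adjustment over all tested genes. In each case the value given is KO minus WT on the log2 scale, over 3 libraries each. Csf2, the GM-CSF gene, fell further in KO, by -1.40 (limma adjusted p = 0.011), but WT Foxp3 cells held 3 corrected counts of it in all, and the call was lost without B or C. With a pseudocount of 0.1 in place of 1 it was also lost, with a difference of -0.0043 (limma adjusted p = 0.998). Csf2 was tested only because of its level in KO zero cells, so its p-values are not taken as support. Gadd45g, a stress-response gene, rose in KO with 0.08 in WT, a difference of 0.85 (limma adjusted p = 0.014), which was lost without A, B or C (up to 0.096). Nt5e, the CD73 gene, rose more in KO by 0.52 (limma adjusted p = 0.038), which was lost without A, B, C, E or F.

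Of the interferon-induced genes, Igtp rose less in KO, with a difference of -0.46 (limma adjusted p = 0.011; up to 0.088 without A or B), and Ifitm2 fell further, with -0.45 (limma adjusted p = 0.0019). The same measure was -0.47 for Serpinb6b, -0.34 for Stk17b, -0.33 for Cst3, -0.27 for Sept9 and -0.23 for Cytip. Of these, Stk17b was lost without A, B or C, Cst3 without A or B and Sept9 without A, B, C, D or F. Cytip was lost at least without B, where 2 genes, Serpinb6b and Ifitm2, were still called lower. Serpinb6b and Ifitm2 kept their calls on leaving out each library but lost them in other settings. Without cluster 1 they were -0.077 (limma adjusted p = 0.96) and -0.34 (limma adjusted p = 0.16). The same KO minus WT value was -0.19 for Socs2 and -0.16 for Il2ra, both of which rose in each genotype. It was 0.24 for Izumo1r, 0.25 for Zfp36l1, 0.27 for H2-DMa and 0.17 for Hmgn1, and the H2-DMa call was lost without A, B, C or F. The calls of Izumo1r, Zfp36l1 and Hmgn1 were lost at least without B and without C, where 0 genes were called more raised. Of the 10 genes named for this test, 0 were called under every alternative and 0 reversed. The cause was not tested.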

How the results depend on the processing

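No paired analysis was possible because the table's libraries carry a sequencing index and a genotype but no replicate number. Values for single genes held their direction and their side of the threshold in 2135 of 2403 cases, lost the call in 225, gained it in 28 and reversed in 15. Of named genes, 15 of 24 in WT, 16 of 24 in KO and 2 of 20 between genotypes were called under every alternative.

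Counts of called genes moved most. With cells within 20% of the median UMIs, WT gave 184 higher and 206 lower, KO 256 and 333, the difference of contrasts 0 and 1, and KO against WT 233 and 218. Without the filter on low values these were 209 and 214, 299 and 414, 0 and 0, and 85 and 125. In cluster 0 only they were 51 and 64, 78 and 107, 0 and 0, and 73 and 49, and without cluster 1 they were 194 and 268, 226 and 315, 2 and 5, and 275 and 239. Cluster 1 only gave 282 and 269 in WT, 3 lower for the difference of contrasts and 283 higher between genotypes. Weighting by cell number gave 866 and 905 in WT and 15 and 20 for the difference. Without cluster matching, 924 were lower in WT, 923 higher and 1322 lower in KO, and 12 higher for the difference. That last count was 13 with Foxp3 of at least 1, 3 with at least 3, 3 without the 5% deepest cells and 11 with TMM scaling. Lower genes between genotypes numbered 712 with Foxp3 of at least 1 and 309 with at least 3. The cause was not tested, beyond the smaller number of cells or larger number of genes that some settings bring.

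Leaving out 1 library gave 234 to 637 higher and 248 to 659 lower in WT, 468 to 517 and 515 to 778 in KO, 0 to 12 and 2 to 32 for the difference, and 184 to 714 and 92 to 691 between genotypes. Share differences ranged from 14.6 to 16.1 points for Ikzf4, from -5.65 to -4.38 for Il2 and from -0.619 to 0.414 for Il9 (0.0108 without D and 0.414 without E), and 5 libraries cannot pass the threshold. The Il9 share difference was 1.09 points with Foxp3 of at least 1 and 0.141 with depth matching. Within 20% of the median UMIs it was -5.69 for Il2 and 15.96 for Ikzf4, and neither passed.

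Of the reversed gene values, 1 passed the test, Il9 in KO without cluster matching (0.46). Il9 was 0.44 in KO in cluster 0 only, -0.014 in WT with Foxp3 of at least 1 and from -0.10 (without B) to 0.14 in WT on leaving out 1 library, and Gadd45g was -0.088 in WT without cluster matching. For the difference of contrasts, without cluster matching Ikzf4 was 0.055 and Il9 0.10, and in cluster 0 only Ikzf4 was 0.086. Il13 was 1.04 with a pseudocount of 0.1 and 0.27 in cluster 1 only. Il2 was -0.12 within 20% of the median UMIs, -0.17 in cluster 1 only and -0.53 in cluster 0 only. Between genotypes Il2 was -0.00061 in cluster 1 only and -0.50 in cluster 0 only. Csf2, Il13 and Il21 rest on few counts in WT Foxp3 cells.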

Other observations

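Il2 in Foxp3 cells depended on the deposited cluster. In cluster 0 it was 413, 563 and 439 ppm in WT libraries and 266, 536 and 254 ppm in KO libraries. In cluster 1, which held most Foxp3 cells, it was 52.1, 71.3 and 65.6 ppm in WT and 44.7, 73.3 and 74.3 ppm in KO. No library of cluster 1 reached a library of cluster 0 in either genotype. Foxp3 cells of cluster 2, the cluster where they held the most Il9 of clusters 0 to 2, had Il2 at 33.0, 19.0 and 59.3 ppm in WT and 117, 243 and 192 ppm in KO, so the KO libraries lay above the WT ones there. The clusters were made from the same cells' expression, so these values are a description.

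Il21, a cytokine of follicular helper T cells, was found in 0 of 1589 WT Foxp3 cells. In KO it had 99 corrected counts in 44 of 815 Foxp3 cells, of which 82 counts came from F, 12 from E and 5 from D. Zero cells were alike in this. They held 3, 2 and 9 counts in A, B and C, over 2999 to 3451 cells per library. In D, E and F they held 229, 85 and 2039 counts, over 3119 to 4886 cells per library. The genotype difference and the share of F were thus not particular to Foxp3 cells.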
